A study of Mus musculus with 6 samples.

Results

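Corin and Enpep, both membrane-bound peptidases, are described here with 7 other genes that make, cleave or sense vasoactive peptides (Ace, Agt, Agtr1a, Agtr2, Npr1, Npr3 and Mme), in testes with and without a conditional knockout in Sertoli cells. The members were all probe sets that GEO's platform annotation gives to 1 of these 9 symbols, which came to 13 of the 45101 probe sets on the array. Corin and Enpep were chosen on their log2 difference between the groups in these same data, so those differences are descriptions, and nothing is read from how they fare in a fit of the same arrays. The other 7 were added for their place in the same peptide systems, also with results of these data known. Total RNA of whole testes from 12-week-old mice was hybridised to 6 Affymetrix arrays, 3 from SCARKO-jsd mice and 3 from jsd mice. Mice of both groups carry the jsd (juvenile spermatogonial depletion) mutation of Utp14b, which leaves adult tubules with Sertoli cells and spermatogonia and few later germ cells. The SCARKO-jsd mice also carry the knockout in Sertoli cells, which nurse the germ cells inside the tubules, and the labels used here do not name the Cre driver. The design text counts 3 mice per genotype but ties no array to a mouse, so p-values reflect only the spread between these arrays, which may be technical in part.

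Vasoactive peptides are released from larger precursors by peptidases and act on membrane receptors. In the renin-angiotensin system, angiotensinogen is cut to angiotensin I, angiotensin-converting enzyme makes angiotensin II, and aminopeptidase A shortens that to angiotensin III. In the natriuretic system, corin cuts the precursor of atrial natriuretic peptide, the peptide raises cyclic GMP through its receptor, and a clearance receptor and neprilysin remove it. The testis holds parts of both systems: spermatids make a form of angiotensin-converting enzyme of their own, and mouse Leydig cells carry the receptor for atrial natriuretic peptide.

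The promoters of Corin and Enpep are shown because these are the members with the widest gaps between the groups. They were taken from RefSeq (GRCm38.p6), which held a start site for 8 of the 9 members, and run from 250 bases before to 50 bases after the start, 5′ to 3′ on the gene's own strand. Capitals mark the letters CCAAT and TATAAA on either strand, which read ATTGG and TTTATA on the opposite strand. Corin lies on the minus strand at chr5:72504491-72504790 and Enpep on the minus strand at chr3:129332700-129332999.
Corin promoter: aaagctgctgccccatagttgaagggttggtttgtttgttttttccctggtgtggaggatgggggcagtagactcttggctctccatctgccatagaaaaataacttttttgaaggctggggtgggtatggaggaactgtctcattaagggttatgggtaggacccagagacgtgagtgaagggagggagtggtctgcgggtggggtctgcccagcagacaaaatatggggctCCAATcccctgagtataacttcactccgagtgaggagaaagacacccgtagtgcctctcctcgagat
Enpep promoter: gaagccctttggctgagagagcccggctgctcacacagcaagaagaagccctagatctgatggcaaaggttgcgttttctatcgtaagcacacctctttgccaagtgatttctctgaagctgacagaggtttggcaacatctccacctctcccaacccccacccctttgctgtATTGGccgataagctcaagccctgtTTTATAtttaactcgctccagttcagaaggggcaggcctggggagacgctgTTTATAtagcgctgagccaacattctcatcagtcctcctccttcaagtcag
Corin held CCAAT once, starting 17 bases before the transcription start. Enpep held ATTGG starting 77 bases before it, and TTTATA starting 52 bases and 1 base before it. CCAAT was in 37.4% of the 32851 promoters of that table and TATAAA in 13.6%. The hexamer AGAACA, an arm of the response element that steroid receptors of the glucocorticoid class share, was in 19.0% of all promoters on either strand. Among the 11 start sites of the members it was in that of Npr3 and in no other. The full palindrome, in which the hexamer and its reverse complement stand 3 bases apart, was in 3 promoters of the whole table and in none of the members. These are matches of letters in a short window and say nothing of binding.

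All values are log2 expression after RMA (robust multi-array average), with differences taken as SCARKO-jsd minus jsd. The array of SCARKO-jsd 2 was unlike the rest. Its correlation across genes with the other 5 was between 0.952 and 0.973, where genes are not independent replicates, while other pairs reached 0.994. Its beta-actin signal at the 3′ end exceeded that at the 5′ end by 1.66 log2 units, against 0.70 to 0.98 on the others. Where leaving this array out moved a named difference by over 1.5 times, the value without it is also given. This was done only for the brightest probe set of genes that were tested. It was not done for further probe sets, genes of low signal or cell markers, some of which moved as much. The gene fit with limma used the brightest probe set of each gene and left out the 40% of genes with the lowest mean, those up to a log2 expression of 6.64, here called dim. It tested 10916 genes, among them 7 of the 9 members, and Agtr2 and Npr3 were dim. By Benjamini-Hochberg adjusted p under 0.05 it called 3.57% of all genes, 1.78% higher and 1.8% lower in SCARKO-jsd testes. The 5 tested members other than Corin and Enpep did not pass. The calls of Corin (lower) and Enpep (higher) follow from how these were chosen, and Corin had a mean above the limit for dim genes through the jsd arrays alone, so nothing is read from that count of 2.

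**Figure D1:**
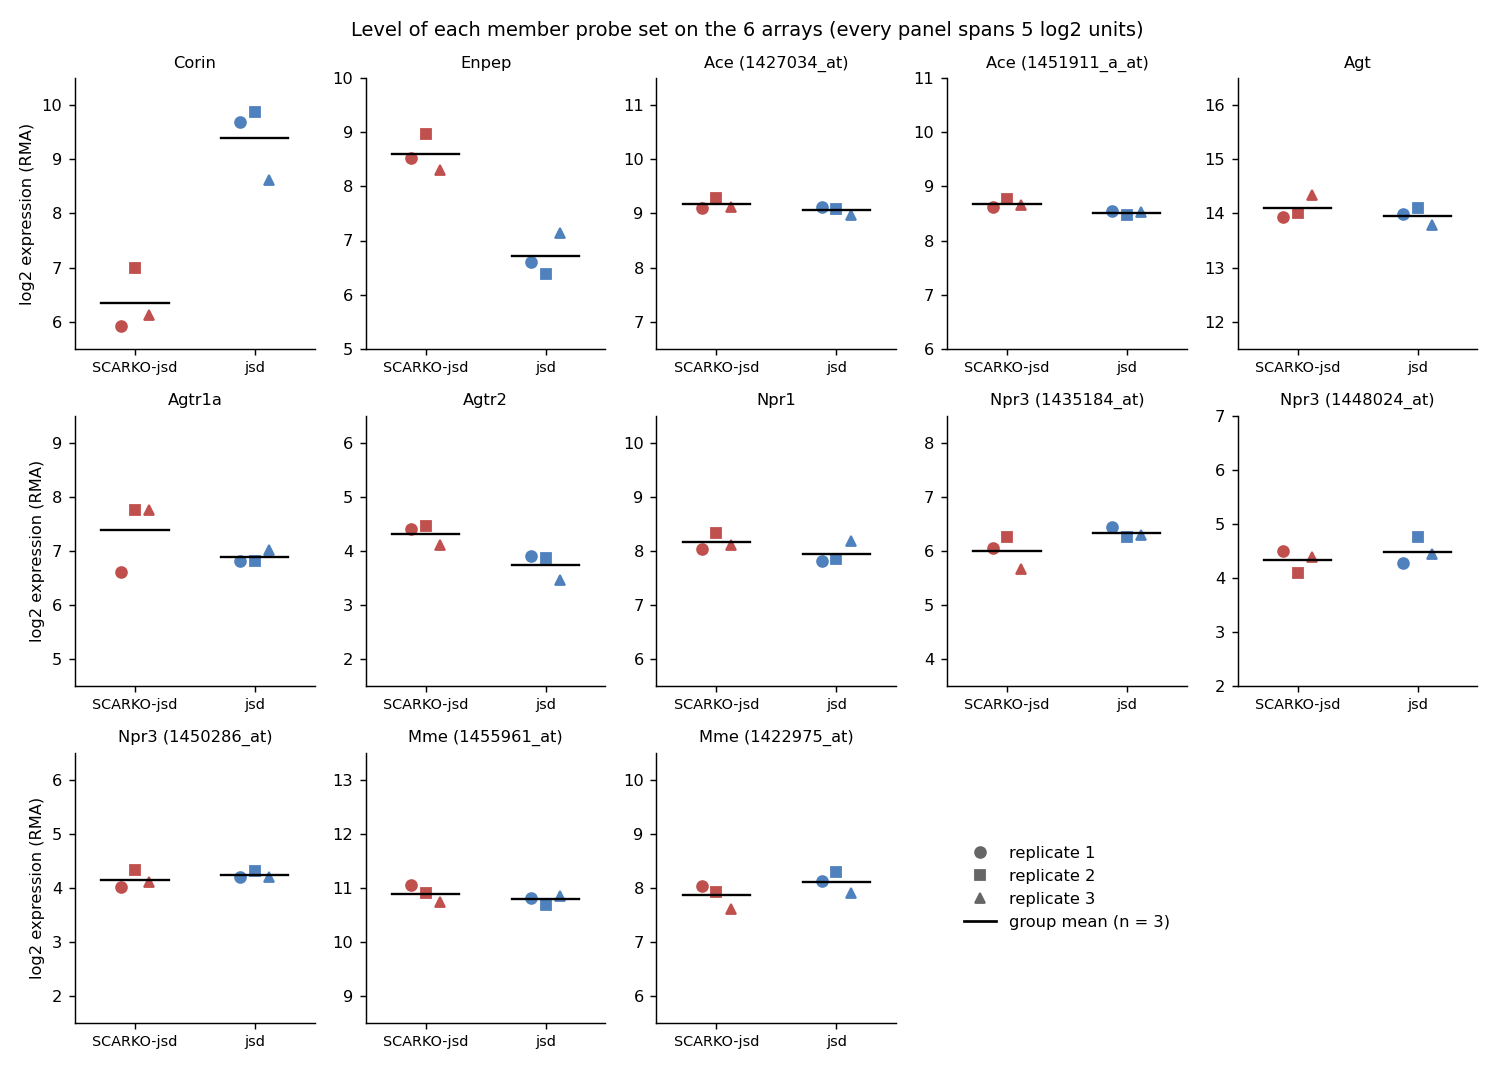
Log2 expression (RMA) of the 13 probe sets of the 9 members on each array, with SCARKO-jsd at the left and jsd at the right of every panel. Points are arrays, symbols give the replicate number, lines are means of 3 arrays, and every panel spans 5 log2 units at its own offset. Corin and Enpep stand out with gaps of -3.05 and 1.90 between the group means, while the gaps of the other probe sets lie between -0.34 and 0.58.

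Among the peptidases, Corin was far lower in SCARKO-jsd testes. Its log2 expression was 5.92, 7.00 and 6.12 in SCARKO-jsd 1, 2 and 3, against 9.70, 9.87 and 8.62 in jsd 1, 2 and 3. The groups did not overlap, SCARKO-jsd 2 was the highest array of its group and jsd 3 the lowest of its own. The means were 6.35 ± 0.57 in SCARKO-jsd and 9.40 ± 0.68 in jsd testes (SD, n = 3 each), 8.27-fold lower, with a difference of -3.05 ± 0.38 (SE). This was the second largest fall of the 10916 genes tested, after that of Rhox5. The SCARKO-jsd mean lay below the limit for dim genes, which leaves the size of the fold uncertain. The difference was -3.37 ± 0.32 without SCARKO-jsd 2 and lay between -3.44 and -2.81 with any 1 array left out.

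Enpep, which encodes aminopeptidase A, went the other way. Its log2 expression was 8.54, 8.97 and 8.30 in SCARKO-jsd 1, 2 and 3, against 6.61, 6.37 and 7.14 in jsd 1, 2 and 3. Again the groups did not overlap, and jsd 3 was the array of its group nearest to the SCARKO-jsd arrays, as it was for Corin. The means were 8.60 ± 0.34 in SCARKO-jsd and 6.71 ± 0.39 in jsd testes (SD, n = 3 each), 3.72-fold higher, with a difference of 1.90 ± 0.23 (SE). The jsd mean was just above the limit for dim genes. The difference was 1.71 ± 0.20 without SCARKO-jsd 2 and between 1.71 and 2.11 with any 1 array left out. Both genes have 1 probe set, so no second probe set bears on either value. Without jsd 1 the differences were -2.90 ± 0.44 for Corin and 1.85 ± 0.28 for Enpep.

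RNA of a whole testis cannot tell fewer cells of a type from less RNA per cell. Beside the Corin value, the Sertoli markers were counted: of 10 tested, 2 fell (Rhox5 and Wt1, a transcription factor of Sertoli cells) and 8 did not pass. Of these 8, Inha, Amh, Fshr and Clu had higher means in SCARKO-jsd testes, and Sox9, Gata1, Gata4 and Cldn11 lower ones. The mean log2 level of the 10 markers lay between 9.86 and 10.13 on the SCARKO-jsd arrays and between 10.33 and 10.51 on the jsd arrays. Rhox5 alone fell by 4.35, and the gap between these levels rests largely on it. Beside the Enpep value, the endothelial markers had a mean log2 level between 6.96 and 7.65 on the SCARKO-jsd arrays, highest in SCARKO-jsd 2, and between 6.86 and 7.28 on the jsd arrays. Of 7 such markers, 2 were dim, 1 fell (Kdr, a VEGF receptor) and 4 did not pass. Those 4 (Vwf, Cdh5, Tek and Emcn) and the dim Pecam1 and Tie1 had higher means in SCARKO-jsd testes, each with SCARKO-jsd 2 highest. Among these, the groups were separate only for Vwf, with a difference of 0.53. Markers of peritubular myoid cells lay between 9.40 and 9.47 in SCARKO-jsd and between 9.35 and 9.54 in jsd testes, those of Leydig cells between 13.22 and 13.46 in SCARKO-jsd and between 13.16 and 13.39 in jsd testes, and those of macrophages between 9.58 and 9.84 in SCARKO-jsd and between 9.72 and 9.89 in jsd testes. None of the 6, 5 and 7 tested genes of these 3 lists passed by limma, and at an unadjusted p under 0.05 they held 0, 0 and 1. Markers of spermatogonia lay between 9.39 and 9.64 in SCARKO-jsd and between 9.16 and 9.41 in jsd testes, with 3 of 7 tested higher, 1 lower and 3 not passing. The part of cell numbers in the values of Corin and Enpep was not tested.

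The other peptidases did not pass the test. Ace, which makes angiotensin II, was 9.11, 9.29 and 9.11 in SCARKO-jsd 1, 2 and 3 and 9.12, 9.09 and 8.96 in jsd 1, 2 and 3 on its brighter probe set. The groups overlapped there, and the difference of 0.11 (95% interval -0.11 to 0.33) did not pass the limma test (Benjamini-Hochberg adjusted p = 0.588), and it was 0.052 without SCARKO-jsd 2. On its other probe set Ace was 8.61, 8.77 and 8.66 in SCARKO-jsd and 8.55, 8.47 and 8.53 in jsd testes. There the groups did not overlap, with a gap of 0.16 between the means. The labels do not say which form of the enzyme either probe set reads. Of 10 markers of meiotic cells and spermatids, 7 were dim, among them Acr, Tnp1 and Prm2, Sycp3 rose and 2 did not pass. The mean log2 level of that list lay between 5.59 and 6.07 in SCARKO-jsd and between 5.42 and 5.72 in jsd testes, and its part in the Ace signal was not tested.

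Mme encodes neprilysin, which degrades natriuretic peptides and other small peptides, and its probe sets had opposite signs. The brighter one read 11.05, 10.90 and 10.73 in SCARKO-jsd 1, 2 and 3 and 10.82, 10.68 and 10.85 in jsd 1, 2 and 3, a difference of 0.11 (95% interval -0.14 to 0.36; limma Benjamini-Hochberg adjusted p = 0.649). The dimmer one read 8.03, 7.93 and 7.61 in SCARKO-jsd and 8.13, 8.29 and 7.90 in jsd testes. Its difference was -0.25, and the groups overlapped on both. With the mean of the probe sets the difference turned to -0.070, so no direction can be given for Mme.

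Agt, the angiotensin precursor gene, was bright, and its spread within the groups exceeded the gap between them. Its log2 expression was 13.93, 14.02 and 14.34 in SCARKO-jsd 1, 2 and 3 and 13.99, 14.11 and 13.79 in jsd 1, 2 and 3, near the highest value of any probe set (14.84). The groups overlapped, and the difference was 0.14 (95% interval -0.18 to 0.45; limma Benjamini-Hochberg adjusted p = 0.649). Without SCARKO-jsd 3, the array with its highest value, the difference was 0.014.

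Of the angiotensin receptors, Agtr1a, the receptor behind most known actions of angiotensin II, was uneven within the SCARKO-jsd group. It read 6.61, 7.76 and 7.76 in SCARKO-jsd 1, 2 and 3 and 6.80, 6.81 and 7.01 in jsd 1, 2 and 3. SCARKO-jsd 1 lay below all jsd arrays, while SCARKO-jsd 2 and 3 lay above all of them. The means were 7.38 ± 0.67 in SCARKO-jsd and 6.87 ± 0.12 in jsd testes (SD, n = 3 each), and the difference of 0.50 (95% interval -0.18 to 1.19) did not pass (limma Benjamini-Hochberg adjusted p = 0.426). It was 0.89 ± 0.10 without SCARKO-jsd 1 and then passed (adjusted p = 0.0143), 0.31 ± 0.28 without SCARKO-jsd 2 and 0.31 ± 0.31 without SCARKO-jsd 3. Mice have a close relative, Agtr1b, which was dim (3.69, 3.93 and 4.01 in SCARKO-jsd, against 3.70, 3.60 and 3.77 in jsd testes), and probes designed for one of them may read both.

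Agtr2, the other class of angiotensin receptor, was dim on every array and so outside the gene fit. It read 4.39, 4.45 and 4.10 in SCARKO-jsd 1, 2 and 3 and 3.89, 3.86 and 3.47 in jsd 1, 2 and 3. The groups did not overlap, and the gap of 0.58 ± 0.16 (SE) had an unadjusted p of 0.00873 and a Benjamini-Hochberg adjusted p of 0.259 in the limma fit of all 45037 probe sets that are not controls. That is 1.49-fold on a scale where background compresses folds.

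The natriuretic peptide receptors showed small gaps of opposite sign. Npr1, the guanylyl cyclase that answers atrial natriuretic peptide, read 8.03, 8.32 and 8.11 in SCARKO-jsd 1, 2 and 3 and 7.81, 7.84 and 8.17 in jsd 1, 2 and 3. The groups overlapped through jsd 3, and the difference of 0.21 (95% interval -0.09 to 0.51) did not pass (limma Benjamini-Hochberg adjusted p = 0.447). It was 0.13 without SCARKO-jsd 2. Npr3, the clearance receptor that removes these peptides, was dim on its 3 probe sets. The brightest read 6.05, 6.25 and 5.66 in SCARKO-jsd and 6.44, 6.26 and 6.28 in jsd testes. SCARKO-jsd 2 and jsd 2 there differed by only 0.010, although the groups did not overlap. The other Npr3 probe sets overlapped, with gaps of -0.16 and -0.086.

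**Figure D2:**
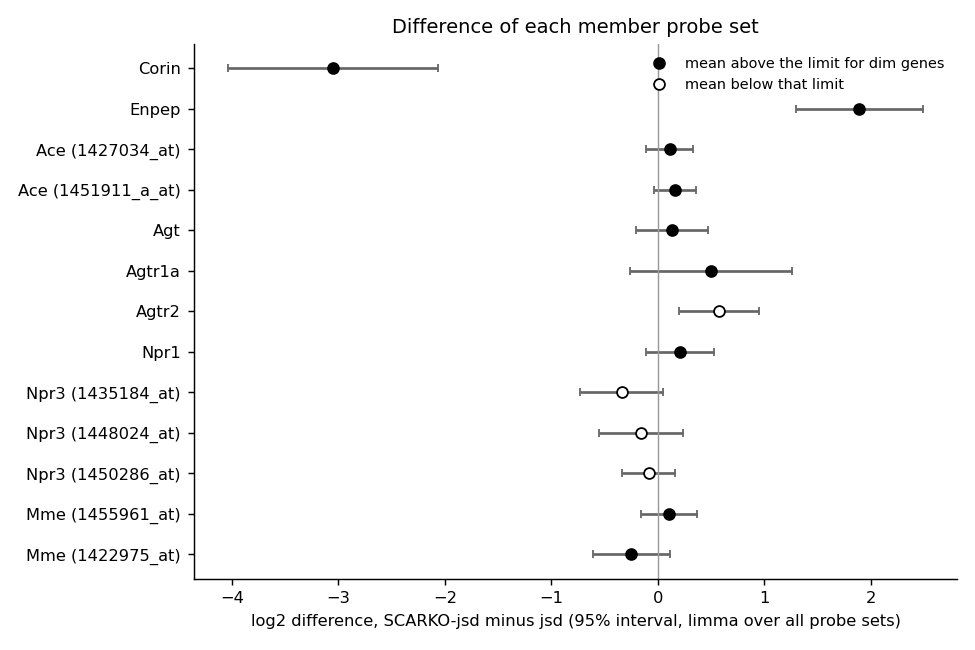
Log2 difference, SCARKO-jsd minus jsd, of the 13 probe sets of the members, with 95% intervals from the limma fit of all 45037 probe sets that are not controls. Filled points have a mean above the limit for dim genes and open points lie below it. Corin and Enpep, chosen on this difference, lie farthest from 0, and of the other members the dim Agtr2 alone has an interval that leaves out 0.

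With every probe set taken by itself and no filter on dim ones, 0 of the 13 member probe sets passed by limma, where 0.28% of all probe sets did. At an unadjusted p under 0.05 there were 3, those of Corin, Enpep and Agtr2. The groups were fully separate for 5 of the 13, against 16.9% of all probe sets, and for 2 of the 7 members in the gene fit, against 24.6% of all genes. Since Corin and Enpep were picked for their gap, nothing is read from these counts. The sizes of their differences are the same in both fits, and only the number of features tested and the shared estimate of spread differ.

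**Figure D3:**
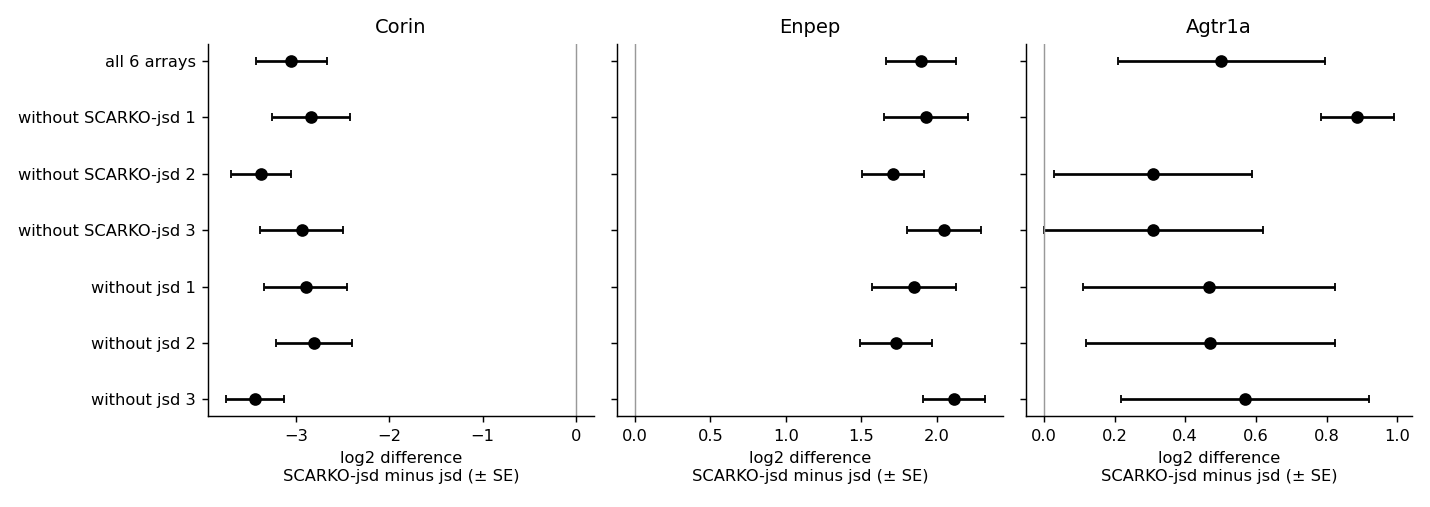
Log2 difference, SCARKO-jsd minus jsd (± SE), of Corin, Enpep and Agtr1a with all 6 arrays and with each array left out in turn, each panel on its own axis. Corin stays between -3.44 and -2.81 and Enpep between 1.71 and 2.11. Both were chosen on this difference, so nothing is read from these ranges or from setting them beside Agtr1a. Agtr1a lies at 0.89 without SCARKO-jsd 1 and between 0.31 and 0.57 in the fits that leave out another array.

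The genes whose profile over the 6 arrays lay nearest to each of these were found by the root mean square difference of log2 values centred on each gene's mean. For Corin they were Cdo1, which oxidises cysteine (0.463), Dixdc1, a regulator of Wnt signalling (0.585), and Bend4 (0.586). The median over all genes was 1.62, near the 1.61 of Corin's own profile, so that median is no measure of closeness. Among the genes that differed at least as much as Enpep, only Rhox5 had its nearest profile farther away (0.701). The distance is not scaled by the size of a profile, and of these genes only Rhox5 had a larger own profile (2.19) than Corin. All 3 nearest genes of Corin were lower in SCARKO-jsd testes, with differences of -2.30, -1.98 and -2.20, smaller than that of Corin. Genes near a profile with so wide a gap share its direction by construction.

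For Enpep the nearest was Rgs17, which encodes a regulator of G protein signalling, at a root mean square difference of only 0.048. It read 8.11, 8.53 and 7.96 in SCARKO-jsd 1, 2 and 3 and 6.22, 6.01 and 6.84 in jsd 1, 2 and 3, and so followed Enpep within each group as well as between them. Rgs17 lies on chromosome 10 and Enpep on chromosome 3. The next were Bcan, which encodes the matrix proteoglycan brevican (0.233), and Akr1c12, an aldo-keto reductase (0.233). Among the 21 other genes that differed at least as much as Enpep, the nearest profile lay between 0.157 and 0.701 away, with a median of 0.204. This distance is not scaled by the size of a profile. Enpep's own profile (0.994) was the smallest of these genes, where the others lay between 1.04 and 2.19. Nothing is therefore read from Enpep's smaller distance. The second Rgs17 probe set read 7.62, 8.67 and 8.03 in SCARKO-jsd and 5.88, 5.65 and 6.75 in jsd testes, where jsd 3 was again the highest of its group. There SCARKO-jsd 1 was the lowest of its group, whereas for Enpep it was SCARKO-jsd 3. This likeness is a description over 6 arrays, chosen as the closest of 10915 genes.

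**Figure D4:**
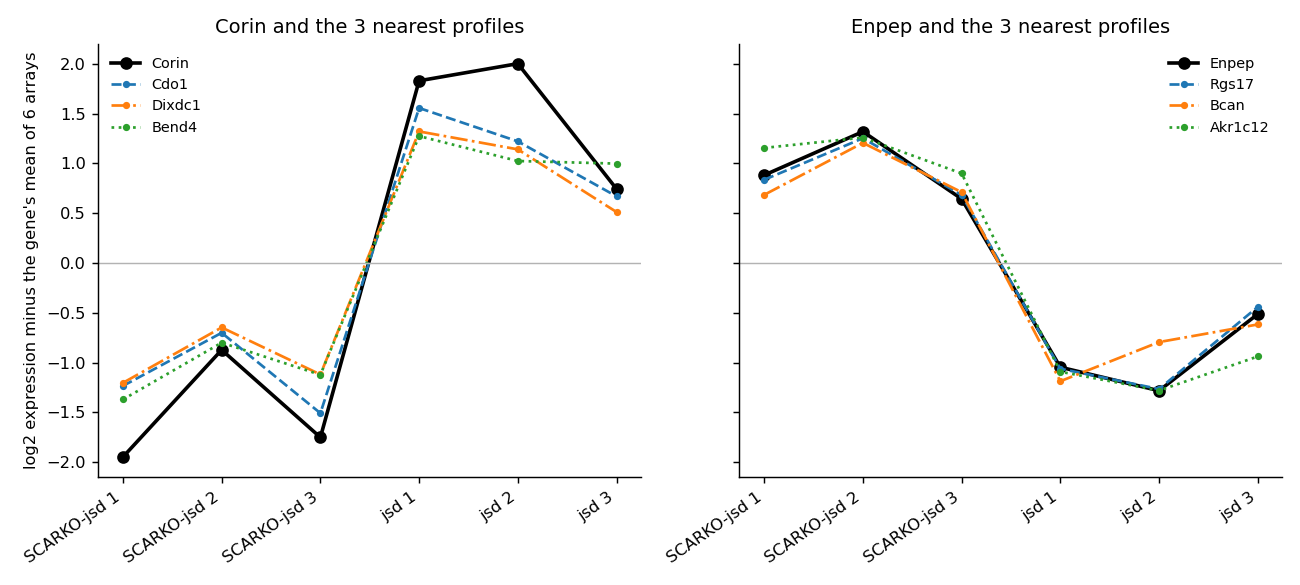
Log2 expression minus the gene's mean of 6 arrays for Corin (left) and Enpep (right), each with its 3 nearest profiles, over the SCARKO-jsd and then the jsd arrays. Lines only join the points of a gene. Rgs17 lies on the line of Enpep at a root mean square difference of 0.048, and Cdo1 follows Corin at 0.463 with a smaller swing.

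Beyond the members, 54 genes of the same peptide systems were listed, and 48 had a probe set of their own here. The remaining 6 were not analysed here. Of the 48, 27 were bright enough to be tested: 0 rose, 1 fell and 26 did not pass by limma, with 9 at an unadjusted p under 0.05, against 18.0% of all genes. The share called is near that of all genes (3.57%). Their median difference was 0.17, against 0.043 over all genes tested, and 21 of the 27 had a higher mean in SCARKO-jsd testes, against 59.8% of all genes. SCARKO-jsd 2 was the highest of the SCARKO-jsd arrays for 21 of the 27, against 66.1% of all genes. Without that array the median was 0.041, against 0.0030 over all genes, and 17 had a higher mean.

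The fall was that of Rnpep, aminopeptidase B, a relative of Enpep that removes basic residues. It read 7.90, 7.96 and 7.98 in SCARKO-jsd 1, 2 and 3 and 8.40, 8.32 and 8.36 in jsd 1, 2 and 3, with a difference of -0.41 ± 0.080 (SE; limma Benjamini-Hochberg adjusted p = 0.0369). The groups did not overlap and the arrays within each were close. The call was lost when any single array other than SCARKO-jsd 2 was left out (limma Benjamini-Hochberg adjusted p = 0.181 at most), with median centring (0.178), with trend and robust (0.0553) and with a replicate block (0.0881). The difference itself lay between -0.43 and -0.39 with any 1 array left out and was -0.37 with median centring. The other 3 tested aminopeptidases, Erap1, Rnpepl1 and Npepps, had differences of 0.43, 0.30 and 0.13 and did not pass. Without SCARKO-jsd 2, Erap1 was at 0.28 and Npepps at 0.057.

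None of the 6 tested genes of cyclic GMP signalling passed the limma test, and 3 were at an unadjusted p under 0.05, where 18.0% of all genes were. The list takes in the nitric oxide route to cyclic GMP, which does not run through the natriuretic receptors. Pde5a, which breaks down cyclic GMP, read 8.77, 8.95 and 9.05 in SCARKO-jsd 1, 2 and 3 and 8.32, 8.42 and 8.55 in jsd 1, 2 and 3. The groups did not overlap, and the difference of 0.49 ± 0.11 (SE) lay just outside the limma threshold (Benjamini-Hochberg adjusted p = 0.0559). It passed without SCARKO-jsd 1 (0.0477) or SCARKO-jsd 2 (0.0479), with trend and robust (0.0494), with array weights (0.0155) and with the lowest 60% of genes left out (0.0451). It did not pass without SCARKO-jsd 3 (0.194), jsd 1 (0.234), jsd 2 (0.199) or jsd 3 (0.0861), with median centring (0.0891) or a replicate block (0.0518), with no filter on dim genes (0.0681) or further quantile normalization (0.0619), nor with the mean of its probe sets, where the difference was 0.32 (adjusted p = 0.183). Of its other probe sets the bright one gave 0.45 and the dim one 0.0020. Gucy1b1, a subunit of the guanylyl cyclase that nitric oxide activates, had a difference of 0.53 on its brighter probe set (adjusted p = 0.179) and 0.0010 on the other. All 6 had positive differences with all arrays. Without SCARKO-jsd 2, Gucy1b1 was at 0.32, Nos3, the endothelial nitric oxide synthase, at 0.036 against 0.18 with it, and Gucy1a1, the partner subunit of Gucy1b1, turned to -0.099 against 0.051 with it.

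The remaining lists held no call. In the natriuretic list of 4 tested genes, Npr2, the receptor for C-type natriuretic peptide, had a difference of 0.34 and Pcsk6, a protease known to activate corin, of 0.38 (limma Benjamini-Hochberg adjusted p = 0.205 and 0.545). Pcsk6 rested on SCARKO-jsd 2 (8.68, against 7.42 and 7.74 in SCARKO-jsd 1 and 3) and was at 0.012 without it. The peptide genes Nppa, Nppb and Nppc were all dim, and Nppa, whose product corin cuts, read 4.10, 4.39 and 4.43 in SCARKO-jsd and 4.22, 4.31 and 4.30 in jsd testes. In the renin-angiotensin list 6 genes were tested, and Prep and Agtrap, with the smallest p, had differences of 0.17 and 0.11. Without SCARKO-jsd 2 these were 0.013 and -0.014. For endothelin, Ece1, a converting enzyme, had a difference of 0.38 and Edn1, the peptide precursor, of -0.49, which was -0.21 without SCARKO-jsd 2. Mmel1, a relative of neprilysin, was the only tested member of its list, with 0.45, and 0.29 without SCARKO-jsd 2. In the kinin list Serping1, an inhibitor of kallikrein, had a difference of 0.17. Klk1, a tissue kallikrein, varied from 9.49 to 11.64 among the SCARKO-jsd arrays and from 9.63 to 11.16 among the jsd arrays, and it has many near-identical relatives in mice, so its probes may read several genes.

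**Figure D5:**
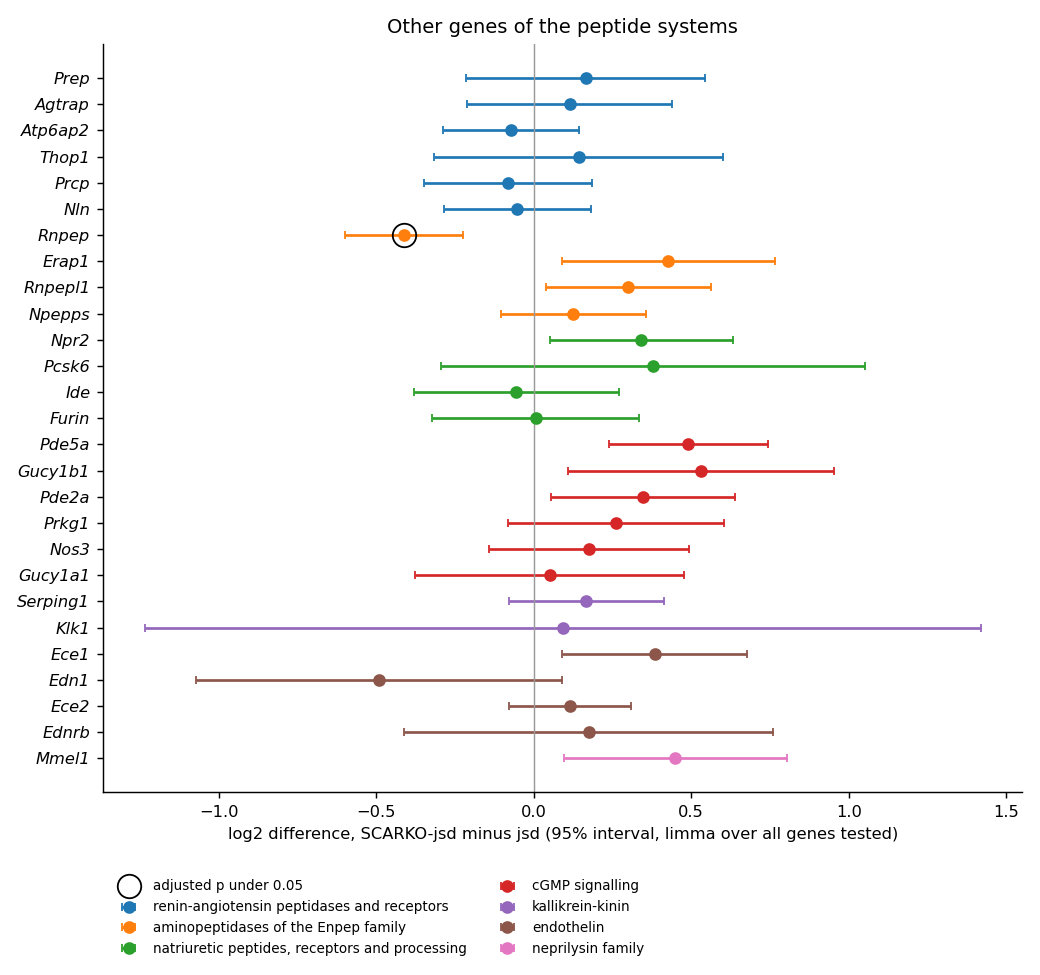
Log2 difference, SCARKO-jsd minus jsd, of the 27 tested genes of the wider peptide systems with 95% intervals from the limma fit of 10916 genes, coloured by list. The circle marks the only call, Rnpep at -0.41. The interval of Klk1 is the widest. Points of the cyclic GMP list lie right of 0 with all 6 arrays, and Gucy1a1 is at -0.099 without SCARKO-jsd 2.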

How the data were processed

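Per the submitters' processing notes, the authors summarised each probe set with RMA from affy, and the deposited values lie on the log2 scale. No version of affy is given in the sources used here. The method is meant to give all arrays a shared distribution, so a shift of most transcripts would not show. Array medians lay between 6.40 and 6.41 except on SCARKO-jsd 2 (6.26), so the deposited values of that array depart from a shared distribution. Of 45101 probe sets, 64 were controls, 34945 others had 1 gene symbol and 932 several, which named no gene. For each of 18193 genes the brightest probe set was used, and the lowest 40% were left out. SCARKO-jsd was compared with jsd by limma 3.58.1 in R 4.3.3 (lmFit and eBayes, two-sided, genotype as the only term, Benjamini-Hochberg adjustment, threshold 0.05), and every probe set was fitted likewise with no filter. The fit was tested on simulated data. Members and lists were chosen with earlier results of these data known. Named are the members, called genes of the wider lists or, in lists without one, the 2 with the smallest p, and the 3 nearest profiles of Corin and Enpep. Other named genes (Erap1, Rnpepl1, Npepps, Gucy1a1, Nos3, Agtr1b, Nppa, Nppb, Nppc and the markers) were chosen after their values were seen. Promoters are RefSeq's (GRCm38.p6), and no build is named for the array. The number of arrays limits the precision. Plots used matplotlib 3.10.9 (Python 3.11.15).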

Additional observations from a re-analysis of the deposited data

How the results depend on the processing

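Counts of called members rest on Corin and Enpep, which were chosen on this difference, so their stability shows nothing. Leaving out the lowest 60% of genes removed both, and 0 of the 3 members then tested were called. With 1 array left out, called members numbered 0 (without jsd 1) to 3 (without SCARKO-jsd 1, Agtr1a added), called pathway genes 0 to 2, member probe sets 0 to 2 (2 without SCARKO-jsd 2), and all called genes 78 (without jsd 1) to 768 (without SCARKO-jsd 2), with 119 without jsd 2, 141 without SCARKO-jsd 3 and 239 without jsd 3. Called genes numbered 390 in the gene fit, 860 with array weights, and 111 and 728 at adjusted p under 0.01 and 0.1. Called pathway genes numbered 1 in the gene fit, 0 with median centring, a replicate block or the 0.01 threshold, and 2 with array weights or the 0.1 threshold. Called member probe sets numbered 0 without a filter, 2 with the lowest 60% left out or the 0.1 threshold, 1 with trend and robust and 6 with array weights, whose estimation stopped before converging, and 0 with the lowest 40% left out, an alternative chosen after seeing the data. The causes were not tested. Mme turned to -0.070 with the mean of probe sets. Same-numbered arrays deviated together with correlations of -0.21, 0.23 and 0.24 across genes, and differently numbered ones with -0.39 to 0.35. Deviations within groups of 3 arrays cannot decide whether the numbers pair animals. The labels state no pairs, so the numbers were not taken as such. With a replicate block 397 genes were called. Dim probe sets limit what can be said of Agtr2, Npr3, the natriuretic peptide genes and the level of Corin in SCARKO-jsd testes.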
